A study of Mus musculus with 24 samples.

Results

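Messenger RNA levels of 10 genes of protein folding in the endoplasmic reticulum (ER) were followed in C2C12 cells, a line of mouse myoblasts that stops dividing and fuses into multinucleate myotubes when growth medium is replaced by differentiation medium. The genes were Hspa5, Hsp90b1, Sdf2l1, Creld2, Dnajb9, Pdia4, Calr, Xbp1, Herpud1 and Manf. All probe sets whose annotated gene symbol was one of these names were taken. They were 20 probe sets of the 45265 on the arrays, 19 of 22690 on the array design called MA and 1 of 22575 on the design called MB, and 0 probe sets listed a member together with another gene. The study compared p68 shRNA with vector and differentiation medium (DM) with growth medium (GM), with the aim of following muscle differentiation under RNA interference.

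The 4 groups were shRNA cells in DM, vector cells in DM, shRNA cells in GM and vector cells in GM, each with 3 arrays of each design and 24 arrays in all. All of the cells were C2C12 and all carried the pSuperR vector. In the shRNA groups the vector encoded a short hairpin RNA against p68, an RNA helicase whose gene is Ddx5, and in the vector groups it was empty. The control was therefore a vector without a hairpin, and only 1 shRNA target is named in the labels. No source used here gives the time in each medium, the passage of the cells or whether replicates were separate cultures. The p-values therefore cover the spread among arrays, and that spread may be technical.

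The ER is the compartment in which secreted and membrane proteins are folded. Hspa5 encodes BiP, the Hsp70 chaperone of its lumen, and BiP holds the stress sensors Ire1, Perk and Atf6 inactive until unfolded protein draws it away. Released Atf6 is cleaved into a transcription factor, active Ire1 splices Xbp1 mRNA so that it encodes one, and active Perk phosphorylates eIF2alpha, which favours translation of Atf4 and, further on, expression of Ddit3 (CHOP). Atf6 and spliced Xbp1 are known activators of the chaperone genes described here, whereas Herpud1 also responds to the Perk and Atf4 branch. In myoblast lines this response is known to be engaged for a time during differentiation.

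Values are the authors' MAS5 signals, which are intensities on a linear scale with no unit, and a probe set's signal is compared only with itself in other groups. Changes are differences of log2(signal + 15) ± standard error, so that the change of a dim probe set is understated. They come from limma, with 4 group means estimated from the 12 arrays of each design, and p-values were adjusted by the Benjamini-Hochberg method over all probe sets that reached a signal of 30 in at least 3 arrays. These were 14367 MA probe sets and 19303 MB probe sets, and a change was called at an adjusted p under 0.05. Of the 19 MA probe sets of the 10 genes, 18 were tested. The untested probe set, a second one for Pdia4, had signals between 3.658 and 29.7. Each gene is given by its MA probe set with the highest mean, called the brightest, and its other probe sets are ranked after it by their means (the second, the third, the fourth). Values within a group run in the order of the replicate numbers, which are 1, 2 and 3 in DM, 2, 3 and 4 for shRNA cells in GM, and 1, 3 and 4 for vector cells in GM.

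The arrays bore out the labels in outline. Ddx5, the target of the shRNA, had signals of 302.5 to 373.1 in DM shRNA cells and 407.9 to 673.5 in DM vector cells (-0.68 ± 0.15, limma adjusted p = 0.00677). In GM its signals were 351.4 to 388.3 in shRNA cells and 420.4 to 489.2 in vector cells, a difference that did not pass (adjusted p = 0.287). In vector cells, 6 of 7 skeletal muscle markers were higher in DM, beside 23.9% of all tested MA probe sets, and the remaining marker was not called (-0.22). Summed signals of the 7 were 25100 to 40930 in DM vector cells and 3510 to 3863 in GM vector cells. Summed signals of 5 macrophage markers overlapped between DM shRNA cells (148.1 to 221.2) and DM vector cells (143.6 to 250.1). Those of 4 adipocyte markers were 205.9 to 279.9 in GM shRNA cells and at most 95 in the other groups, and this came mostly from Lpl, the lipoprotein lipase. Replicate 3 of DM vector stood furthest from its own group among MA arrays, with a mean correlation of 0.951 against 0.962 to 0.983 for the other arrays. Calls of the 10 genes that change without it are given both ways.

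The upstream regions of the genes show what could be read from sequence alone. The ER stress response element (ERSE), bound by Atf6 with NF-Y, and its shorter form ERSE-II are both known from targets of Atf6 and Xbp1. Promoter sequences were those of RefSeq on the GRCm38.p6 build and were matched for 9 of the 10 genes; Manf was the remaining gene. In the 250 bases before the transcription start, searched on both strands, ERSE (CCAAT, 9 bases of any kind, then CCACG) was found in 4 of the 9 genes, namely Hspa5, Hsp90b1, Creld2 and Calr. It was found in 37 of all 32851 promoters of the same length, which is 0.113%. ERSE-II (ATTGG, 1 base of any kind, then CCACG) was found in Herpud1 and in 10 promoters overall (0.0304%). The C/EBP-ATF response element (CARE, TGATGNAA), known from Atf4 and CHOP targets, was found in Herpud1 and in 3.45% of promoters, while the core of the unfolded protein response element (UPRE, TGACGTGG) was found in 0 of the 9 genes and in 0.563% of promoters. ERSE and ERSE-II share their CCAAT (or its complement ATTGG) and CCACG parts with the single boxes, and CCAAT alone was in 8 of the 9 genes and in 33.8% of promoters. A match describes letters and not a bound site, and its absence says only that these letters are not in this window.

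The regions of 4 genes are printed: Hspa5, which encodes the central chaperone, Creld2, which holds the same element and was lower in DM in vector cells, and Herpud1 and Dnajb9, which were higher there. Hspa5 lies at chr2:34771840-34772089 on the plus strand, Creld2 at chr15:88819396-88819645 on the plus strand, Herpud1 at chr8:94386179-94386428 on the plus strand and Dnajb9 at chr12:44210069-44210318 on the minus strand. Each runs 5′ to 3′ towards the transcription start, which follows its last base. Capitals mark ERSE in Hspa5 (bases 65 to 47 before the start) and in Creld2 (bases 126 to 108, on the opposite strand). In Herpud1 they mark CARE on the opposite strand (bases 112 to 105) and then ERSE-II (bases 52 to 42). Dnajb9 has no capitals because none of these elements was found.
Hspa5: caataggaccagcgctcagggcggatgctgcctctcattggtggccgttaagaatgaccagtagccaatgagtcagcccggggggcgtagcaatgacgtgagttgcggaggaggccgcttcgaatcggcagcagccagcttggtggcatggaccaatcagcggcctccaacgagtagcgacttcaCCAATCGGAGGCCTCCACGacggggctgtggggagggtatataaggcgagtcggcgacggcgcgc
Creld2: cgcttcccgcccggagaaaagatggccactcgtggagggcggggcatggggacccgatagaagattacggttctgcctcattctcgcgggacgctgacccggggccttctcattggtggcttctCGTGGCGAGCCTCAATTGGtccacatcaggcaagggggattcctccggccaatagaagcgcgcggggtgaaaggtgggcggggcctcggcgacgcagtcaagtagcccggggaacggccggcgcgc
Herpud1: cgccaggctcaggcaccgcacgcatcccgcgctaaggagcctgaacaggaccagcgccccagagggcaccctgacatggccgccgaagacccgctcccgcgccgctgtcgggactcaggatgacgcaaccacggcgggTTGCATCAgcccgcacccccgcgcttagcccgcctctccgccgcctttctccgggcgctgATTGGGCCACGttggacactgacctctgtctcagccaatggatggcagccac
Dnajb9: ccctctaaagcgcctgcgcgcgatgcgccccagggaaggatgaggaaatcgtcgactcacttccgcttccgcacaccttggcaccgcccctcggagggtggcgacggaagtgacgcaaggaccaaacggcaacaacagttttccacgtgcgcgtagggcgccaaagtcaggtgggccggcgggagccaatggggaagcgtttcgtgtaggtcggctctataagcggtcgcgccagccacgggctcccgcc

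In vector cells, 8 of the 10 genes changed between DM and GM, and they went in both directions. Herpud1, Dnajb9 and Xbp1 were higher in DM, whereas Sdf2l1, Creld2, Manf, Calr and Hspa5 were lower, each at its brightest probe set. The largest changes were a 4.72-fold higher Herpud1 and a 3.32-fold lower Sdf2l1. Beside the 3 genes of 10 called higher, 23.9% of all tested MA probe sets were called higher, and beside the 5 called lower, 25.4%. The median change of the 10 genes was -0.54, against 0.008 for all probe sets tested. The groups did not overlap for 3 genes higher in DM and 5 lower, where 25.9% and 28% of all probe sets were separate in these directions. Hsp90b1 and Pdia4 were the 2 genes whose DM and GM vector arrays overlapped.

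**Figure D1:**
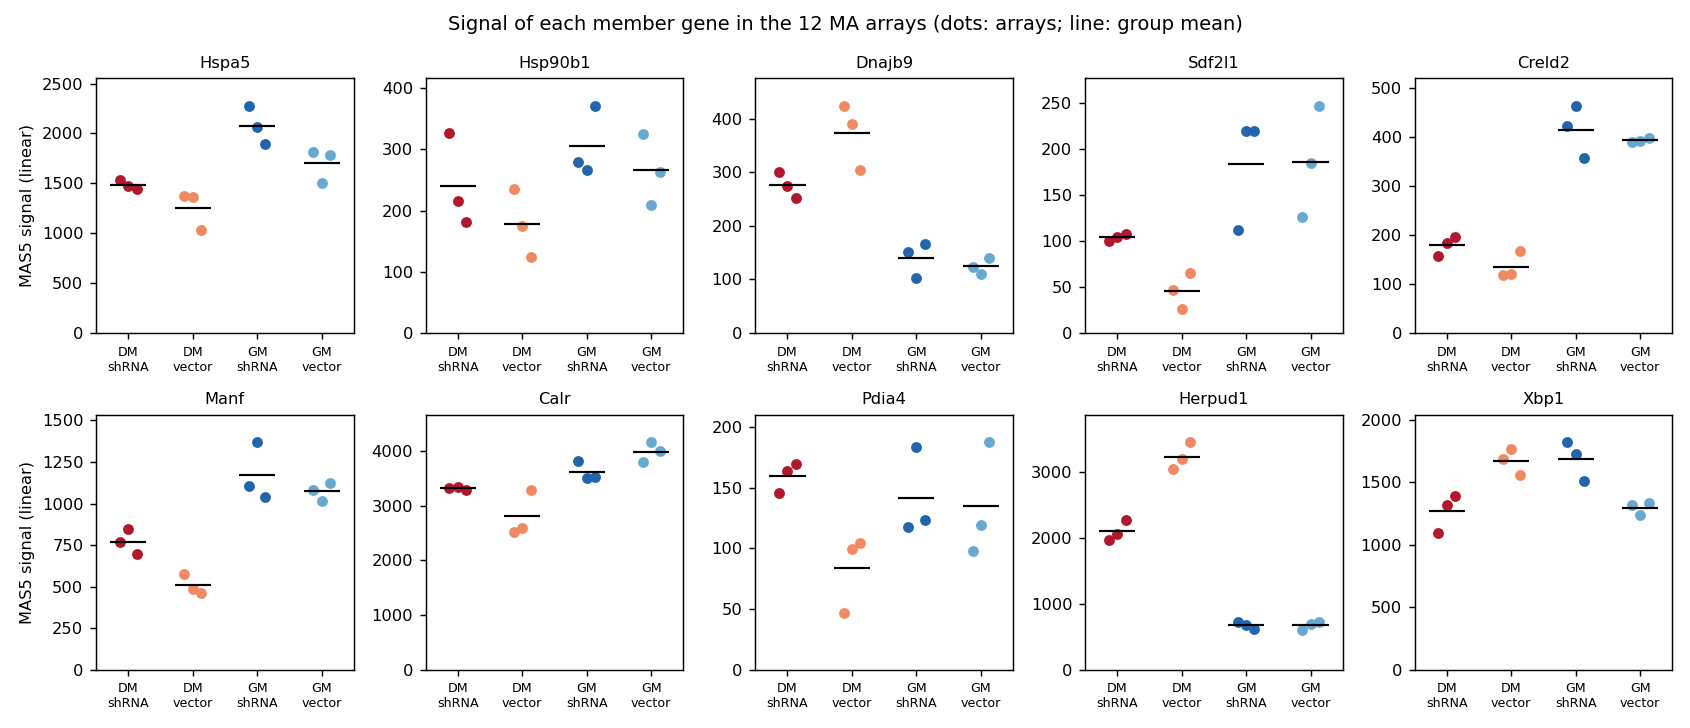
MAS5 signal (linear, from 0) of each of the 10 genes at its highest-mean MA probe set, with 1 dot per array, 3 arrays per group and a line at the group mean; groups run DM shRNA, DM vector, GM shRNA, GM vector. Herpud1 and Dnajb9 stand highest in DM vector, whereas Sdf2l1, Creld2 and Manf stand lowest there.

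The lumenal Hsp70 system was lower in DM at its centre. Hspa5 had signals of 1532, 1477 and 1446 in DM shRNA cells, 1369, 1366 and 1036 in DM vector cells, 2278, 2060 and 1897 in GM shRNA cells, and 1816, 1507 and 1785 in GM vector cells. All DM arrays of a construct lay below all of its GM arrays. The DM against GM change was -0.44 ± 0.12 in vector cells (limma adjusted p = 0.00806) and -0.48 ± 0.12 with the shRNA (adjusted p = 0.00765). The vector result did not pass when the probe sets of the gene were averaged (-0.34, adjusted p = 0.101), and the second probe set overlapped between the groups there. The second probe set was lower in DM in shRNA cells (-0.80 ± 0.23, adjusted p = 0.013). The MB probe set of Hspa5 had 3433, 3912 and 1947 in DM shRNA cells, 2876, 2353 and 3759 in DM vector cells, 3509, 3424 and 2845 in GM shRNA cells, and 4861, 4356 and 3256 in GM vector cells. It overlapped in every comparison and was called in none. Its DM against GM change in vector cells was -0.48 ± 0.23 (adjusted p = 0.255), and MB arrays had a median residual SD of 0.523 against 0.214 for MA. On MB arrays, the share of tested probe sets called in either direction was 9.21% for DM against GM in vector cells, 4.85% in shRNA cells, 1.17% for the shRNA in DM, 0.275% in GM and 0.389% for the difference between the media.

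Dnajb9 encodes ERdj4, a J-protein that stimulates BiP and is known as an Xbp1 target, and it moved opposite to Hspa5. Its signals were 300.6, 273.6 and 252 in DM shRNA cells, 423.9, 390.6 and 303.8 in DM vector cells, 152, 101.9 and 166.9 in GM shRNA cells, and 122.4, 110.8 and 140.7 in GM vector cells. Every DM array lay above every GM array. The rise in DM was 1.47 ± 0.17 in vector cells (limma adjusted p = 5.16e-06) and 0.93 ± 0.17 with the shRNA (adjusted p = 0.000742). Sdf2l1, a lumenal protein that works with BiP and its J-proteins, had 99.67, 104.9 and 108.1 in DM shRNA cells, 47.14, 25.61 and 65.54 in DM vector cells, 112, 219.2 and 220 in GM shRNA cells, and 126.5, 184.7 and 247.1 in GM vector cells. It was lowest in DM vector and did not overlap with GM there. Its change of DM against GM was -1.73 ± 0.28 in vector cells (adjusted p = 0.000122) and -0.68 ± 0.28 with the shRNA (adjusted p = 0.075). The shRNA call was made without replicate 3 of DM vector in the shared fit (adjusted p = 0.0435), without replicate 2 of GM shRNA (0.0159) and with only the groups compared (0.027).

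Creld2 and Manf encode proteins that are induced by ER stress and partly secreted. Creld2 had 156.4, 182.9 and 196.6 in DM shRNA cells, 117.7, 119.7 and 167.8 in DM vector cells, 421.7, 463.1 and 355.7 in GM shRNA cells, and 389.9, 391.1 and 396.9 in GM vector cells. Every DM array lay below every GM array, and the GM vector arrays were close together (SD 3.74). The fall in DM was -1.46 ± 0.15 in vector cells (limma adjusted p = 9.66e-07) and -1.14 ± 0.15 with the shRNA (adjusted p = 2.62e-05). Manf had 768.1, 846.1 and 693.6 in DM shRNA cells, 575.7, 487.7 and 463.2 in DM vector cells, 1107, 1368 and 1038 in GM shRNA cells, and 1082, 1017 and 1124 in GM vector cells. The order was GM, then DM shRNA, then DM vector, and the GM groups overlapped each other. The change of Manf was -1.06 ± 0.13 in vector cells (adjusted p = 5.64e-06) and -0.59 ± 0.13 with the shRNA (adjusted p = 0.00203).

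Of Calr, Hsp90b1 and Pdia4, only Calr was called for DM against GM in vector cells at its brightest probe set. Calr, the lectin chaperone calreticulin, had 3331, 3351 and 3285 in DM shRNA cells, 2522, 2598 and 3297 in DM vector cells, 3819, 3515 and 3532 in GM shRNA cells, and 3804, 4162 and 4008 in GM vector cells. Replicate 3 of DM vector lay above the other DM vector arrays and among those of DM shRNA. In vector cells, Calr was lower in DM (-0.52 ± 0.11, limma adjusted p = 0.000931), and the second (-0.58 ± 0.16) and the third (-0.55 ± 0.12) probe set were called lower too. In shRNA cells the change was -0.12 ± 0.11 (adjusted p = 0.409). Hsp90b1 encodes GRP94, the Hsp90 of the ER. It had 326.9, 214.9 and 180.9 in DM shRNA cells, 235.2, 175.2 and 123.8 in DM vector cells, 279.5, 266.8 and 371.4 in GM shRNA cells, and 325.2, 209.3 and 262.5 in GM vector cells. All 4 groups overlapped with a neighbour, and the DM against GM change in vector cells did not pass (-0.56 ± 0.24, adjusted p = 0.0635). Hsp90b1 passed in vector cells without replicate 1 of DM vector (-0.77, adjusted p = 0.0166) or replicate 3 of GM vector (-0.71, 0.0399). It also passed there without replicate 1 of DM shRNA in the shared fit (0.0422). Its second probe set went the other way there (0.77 ± 0.28, adjusted p = 0.0353), though replicate 3 of DM vector (61.68) lay within the range of GM vector (58.05 to 82.96), so the direction of Hsp90b1 depends on the probe set. Pdia4, the disulfide isomerase ERp72, had 145.9, 164.2 and 170.1 in DM shRNA cells, 46.82, 99.99 and 104.8 in DM vector cells, 117.7, 183.4 and 123.3 in GM shRNA cells, and 97.74, 119.2 and 187.5 in GM vector cells. For Pdia4, neither the change in vector cells passed (-0.62 ± 0.26, adjusted p = 0.0609) nor that in shRNA cells (0.18 ± 0.26, adjusted p = 0.627). The vector change passed without replicate 3 (-0.78, adjusted p = 0.024) or 2 (0.0469) of DM vector, or without replicate 1 of GM vector (0.0326).

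Herpud1 encodes an ER membrane protein that organises the degradation of misfolded proteins, and it changed most. Its signals were 1966, 2054 and 2268 in DM shRNA cells, 3039, 3193 and 3443 in DM vector cells, 729.6, 671.6 and 622 in GM shRNA cells, and 604.9, 686.4 and 723.8 in GM vector cells. DM vector stood highest, DM shRNA came next, and the GM groups lay together. The rise in DM was 2.24 ± 0.11 in vector cells (limma adjusted p = 3.49e-10) and 1.61 ± 0.11 with the shRNA (adjusted p = 2.81e-08). The second probe set gave 2.19 ± 0.11 and 1.54 ± 0.11 for the same contrasts.

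Xbp1 encodes the transcription factor whose mRNA is spliced by Ire1, and its probe sets differed from each other. At the brightest probe set, signals were 1094, 1319 and 1388 in DM shRNA cells, 1682, 1769 and 1556 in DM vector cells, 1818, 1722 and 1512 in GM shRNA cells, and 1314, 1239 and 1334 in GM vector cells. DM was above GM in vector cells (0.36 ± 0.11, limma adjusted p = 0.0142) and below it in shRNA cells (-0.41 ± 0.11, adjusted p = 0.0105), without overlap in either. At the second probe set, signals were 966.1, 1080 and 1160 in DM shRNA cells, 1141, 1149 and 1116 in DM vector cells, 1477, 1598 and 1563 in GM shRNA cells, and 1582, 1476 and 1638 in GM vector cells. Here every DM array lay below every GM array, with changes of -0.46 ± 0.10 (adjusted p = 0.00108) for the vector and -0.53 ± 0.10 (adjusted p = 0.000604) for the shRNA. The third and the fourth probe set were called in no comparison, and their changes in vector cells were -0.09 ± 0.21 and -0.26 ± 0.16. With the 4 probe sets averaged, the vector change was -0.11, so the direction of Xbp1 in DM depends on the probe set. At the brightest probe set, the vector call was also lost without replicate 2 of DM vector (adjusted p = 0.0549) or replicate 3 of GM vector (0.0519), and the shRNA call without replicate 1 of DM shRNA (0.0578) or replicate 2 of GM shRNA (0.0509). Which transcript forms each probe set detects was not tested.

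**Figure D2:**
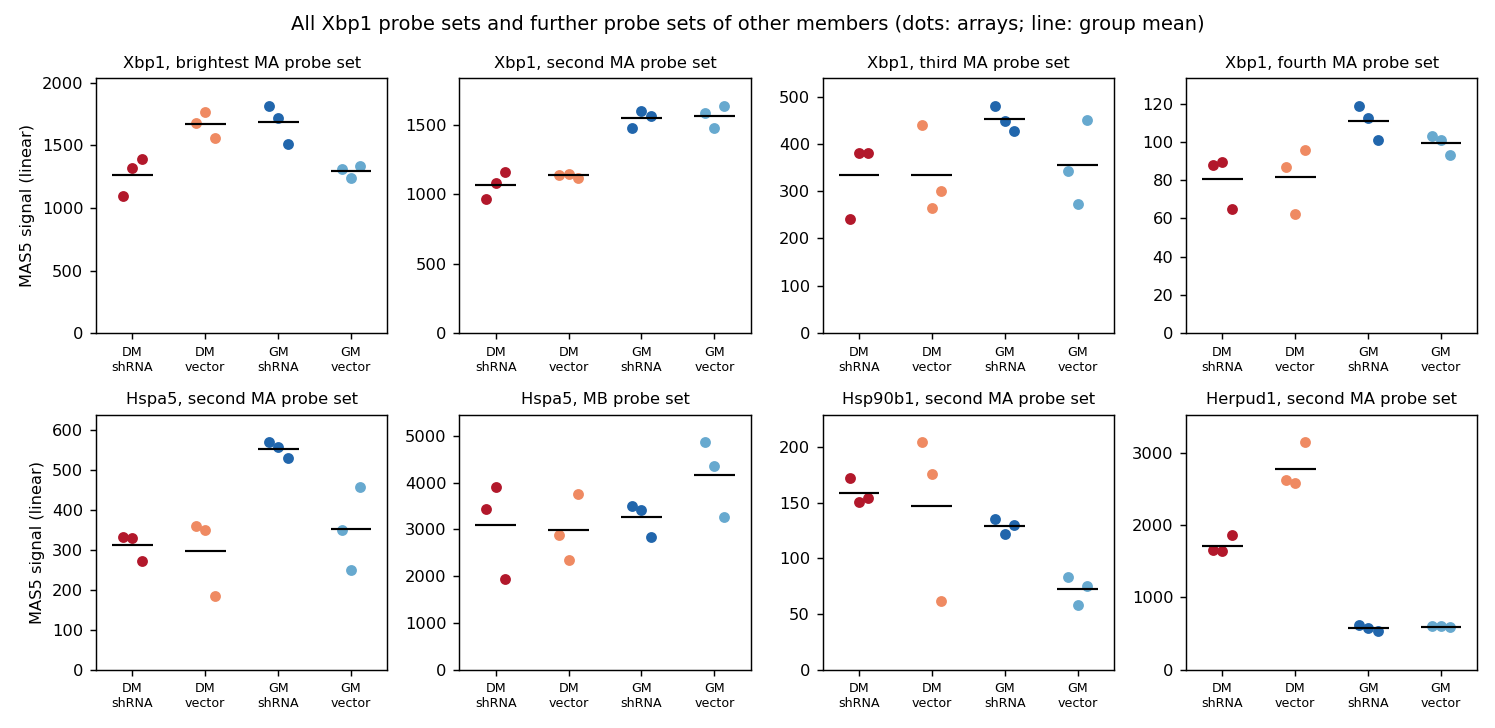
MAS5 signal (linear, from 0) of the 4 Xbp1 probe sets (upper row) and of further probe sets of Hspa5, Hsp90b1 and Herpud1 (lower row), with 1 dot per array, 3 arrays per group and a line at the group mean. The brightest Xbp1 probe set is high in DM vector and GM shRNA, whereas the second one separates DM from GM, and the second Herpud1 probe set is highest in DM vector.

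In shRNA cells, 2 of the 10 genes were called higher in DM than in GM (Herpud1 and Dnajb9) and 4 lower (Creld2, Manf, Hspa5 and Xbp1), while 16.3% and 17.5% of all tested MA probe sets were called in these directions. The median change of the 10 genes was -0.38, against -0.003 for all probe sets. The groups were separate for 2 genes higher and 6 lower, the added ones being Sdf2l1 and Calr, against 25.1% and 25.6% of all probe sets. The ratio of 3' to 5' control probe signals is a measure of RNA integrity and labelling. On MA arrays, its mean log2 value differed by -0.093 between DM and GM in vector cells and by -0.04 in shRNA cells. The exact permutation p was 0.1 and 0.2, where 0.1 is the smallest that 3 against 3 arrays allow. On MB arrays, the differences were -0.143 (exact permutation p = 0.1) and -0.013 (p = 0.5). The part of this ratio in the changes between the media was not tested. In bulk RNA, fewer cells of a type and less RNA per cell cannot be told apart.

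With the shRNA, 5 of the 10 genes were called in DM and 0 in GM. In DM, Sdf2l1, Pdia4 and Manf were higher in shRNA than in vector cells, by 2.03-fold, 1.84-fold and 1.5-fold, and Herpud1 and Xbp1 were lower, by 1.54-fold and 1.32-fold. The 3 genes called higher stand beside 10.7% of all tested MA probe sets called higher, and the 2 called lower beside 6.24%. The median change of the 10 genes was 0.32, against 0.052 for all probe sets. Arrays were separate for 4 genes higher with the shRNA (Hspa5, Sdf2l1, Pdia4 and Manf) and 3 lower (Dnajb9, Xbp1 and Herpud1), against 18.4% and 12.3% of all probe sets. The DM vector arrays stand in this comparison and in that of DM with GM in vector cells, so the values of each gene in the 2 comparisons are not independent.

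Herpud1 was lower by 0.62 ± 0.11 on the log2 scale in shRNA cells in DM (-0.618, limma adjusted p = 0.000965), and its second probe set changed by -0.69 ± 0.11 (adjusted p = 0.000425). Manf was higher (0.58 ± 0.13, adjusted p = 0.00475). These are the called genes whose shRNA result in DM held in every alternative tried. Sdf2l1 was higher (1.02 ± 0.28, adjusted p = 0.0205), and the call was lost without any of the 3 DM shRNA arrays (adjusted p = 0.051, 0.0611 and 0.0609) or without replicate 2 of DM vector (0.0994), the array with its lowest signal. Pdia4 was higher (0.88 ± 0.26, adjusted p = 0.0284), and the call was lost without replicate 1 of DM vector (46.82 there; adjusted p = 0.0992), without any of the 3 DM shRNA arrays (0.0548, 0.0829 and 0.0842), with no filter (0.0538), with only the groups compared (0.0508) and when its untested probe set was averaged in (0.278). Xbp1 was lower at its brightest probe set (-0.40 ± 0.11, adjusted p = 0.0221), while the second one changed by -0.09 ± 0.10 (adjusted p = 0.586). The Xbp1 call was lost without replicate 1 of DM shRNA (adjusted p = 0.106) or replicate 2 of DM vector (0.0818), with only the groups compared (0.083), without the variance trend (0.0531) and when its probe sets were averaged (0.463).

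The remaining genes did not pass in DM. The change of Creld2 was 0.38 ± 0.15 (limma adjusted p = 0.0907), that of Dnajb9 -0.41 ± 0.17 (adjusted p = 0.126), that of Calr 0.25 ± 0.11 (adjusted p = 0.125), that of Hspa5 0.25 ± 0.12 (adjusted p = 0.198) and that of Hsp90b1 0.41 ± 0.24 (adjusted p = 0.281). Without replicate 3 of DM vector, Creld2 (0.53, adjusted p = 0.0122), Calr (0.37, adjusted p = 0.0087) and Dnajb9 (-0.54, adjusted p = 0.0401) passed as well, which gave 5 genes higher and 3 lower. The share of all tested MA probe sets called in either direction was then 19.7%, against 16.9% with all arrays. Calr also passed with quantile normalization (adjusted p = 0.00312). The 3' to 5' control ratio differed by 0.007 between these groups on MA arrays (exact permutation p = 0.9) and by 0.03 on MB arrays (p = 0.1). Ckm, the muscle creatine kinase, was lower in shRNA cells in DM (-0.99 ± 0.14, adjusted p = 0.000199) and Mki67, a marker of dividing cells, was higher (1.48 ± 0.19, adjusted p = 9e-05), while the myogenic factor Myog did not pass (-0.36 ± 0.17, adjusted p = 0.174). The part of these differences in the chaperone changes was not tested.

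In GM, limma called 0 of the 10 genes higher and 0 lower with the shRNA, where 3.99% and 2.57% of all tested MA probe sets were called. At an unadjusted p under 0.05, 20.5% of all tested MA probe sets passed, and so did 2 of the 10 genes. These were Xbp1 at its brightest probe set (0.37 ± 0.11, adjusted p = 0.0625) and Hspa5 (0.29 ± 0.12, adjusted p = 0.198). At the brightest probe sets, these are also the 2 genes whose GM arrays did not overlap, both higher with the shRNA, against 17.5% of all probe sets. Their other probe sets differed in direction. For Hspa5 the second gave 0.67 ± 0.23 and the MB one -0.34 ± 0.23. For Xbp1 the second gave -0.02 ± 0.10, the third 0.36 ± 0.21 and the fourth 0.14 ± 0.16. None of these was called. The second probe sets of Hspa5 and of Hsp90b1 were also separate and higher, and the third Calr one separate and lower. Xbp1 passed in GM with quantile normalization (adjusted p = 0.0192), with only the groups compared (0.0346), and without replicate 3 of DM vector (0.0375) or replicate 1 of DM shRNA (0.0458) in the shared fit. The 95% interval of the shRNA change in GM was -0.22 to 0.23 for Herpud1, -0.15 to 0.38 for Manf, -0.63 to 0.57 for Sdf2l1 and -0.47 to 0.63 for Pdia4. Between the GM groups, the 3' to 5' control ratio differed by -0.046 on MA arrays (exact permutation p = 0.2) and by -0.099 on MB arrays (p = 0.1). The part of that ratio in the GM values was not tested.

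**Figure D3:**
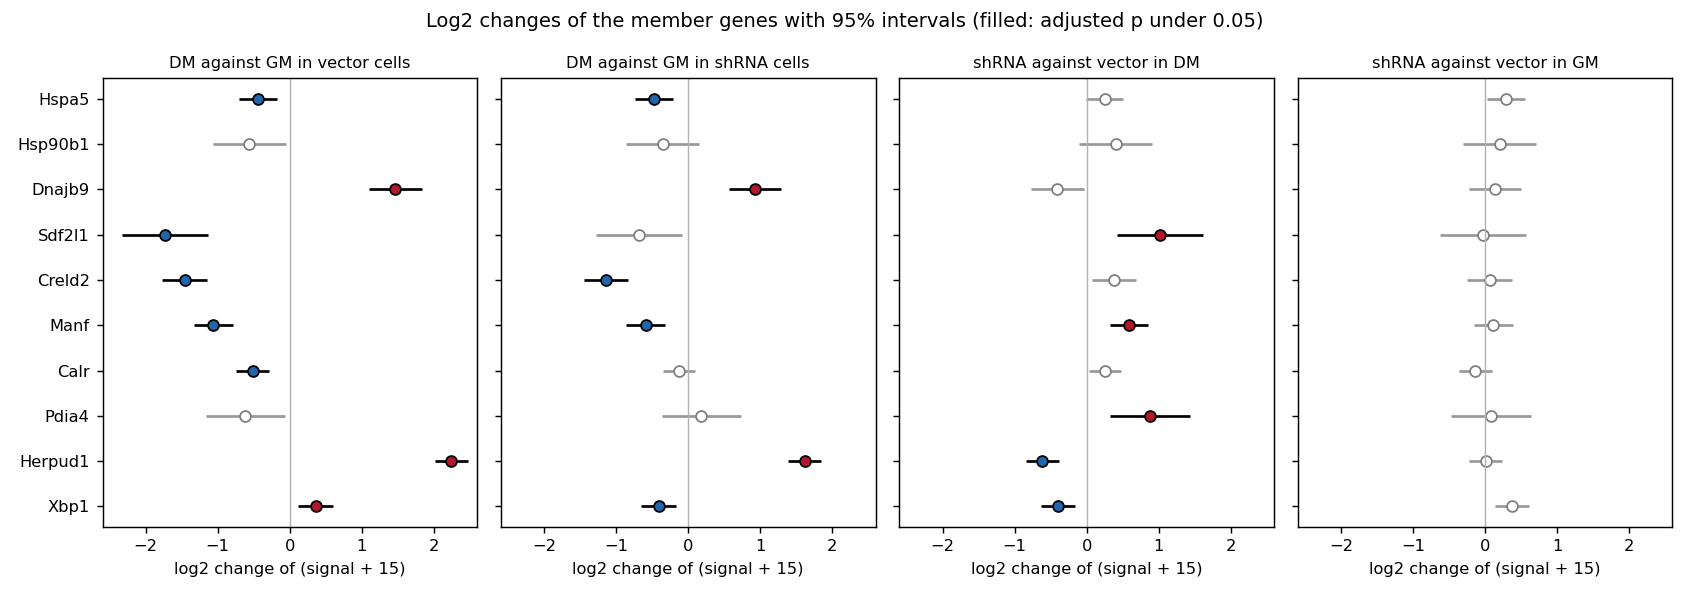
Change (log2, signal + 15) of the 10 genes at their highest-mean MA probe sets in the 4 comparisons, with bars for the 95% interval from limma and filled points for an adjusted p under 0.05. DM against GM holds the widest changes, from -1.73 for Sdf2l1 to 2.24 for Herpud1, and no point is filled for the shRNA in GM.

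The difference between the media in the response to the shRNA was tested directly as an interaction. It was below 0 for Xbp1 at its brightest probe set (-0.77 ± 0.16, limma adjusted p = 0.00639) and for Herpud1 (-0.63 ± 0.15, adjusted p = 0.0164), and 0 of the 10 genes were called above 0. Over all tested MA probe sets, 4.48% were called below 0 and 5.48% above. The interaction did not pass for Sdf2l1 (1.05 ± 0.40, adjusted p = 0.117), Pdia4 (0.80 ± 0.36, adjusted p = 0.2) or Manf (0.47 ± 0.18, adjusted p = 0.116), nor for Calr (0.39 ± 0.15, adjusted p = 0.121). Without replicate 3 of DM vector, it passed for Sdf2l1 (1.27, adjusted p = 0.0369) and Calr (0.51, adjusted p = 0.0104), and it passed for Calr with quantile normalization (adjusted p = 0.0183). That of Herpud1 was lost without replicate 1 of GM vector (adjusted p = 0.0505). That of Xbp1 was lost when its probe sets were averaged (adjusted p = 0.171), and it was -0.07 ± 0.14 at the second one.

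Other genes of ER proteostasis were read from lists, with the 10 genes left out of them, for the same comparisons on MA arrays. Here 7 lists are described, and a further one, of ER prolyl isomerases and collagen-folding genes, is given under the other observations. In vector cells, 11 of 12 genes of the Atf4 and CHOP branch were higher in DM and 1 was lower, with a median change of 1.55, beside 23.9% and 25.4% of all tested MA probe sets. Atf3, a transcription factor of that branch, averaged 50.6 in DM shRNA cells, 203.7 in DM vector cells, 3.594 in GM shRNA cells and 3.202 in GM vector cells. The GM signals lie below the 15 added before the logarithm, so no size is given for its call in DM (limma adjusted p = 2.71e-09). Ndrg1 was the gene that was lower in DM (-1.37 ± 0.12). With the shRNA in DM, 10 of the 12 were lower and 0 higher, beside 6.24% and 10.7% of all probe sets, with a median of -1, and Atf3 changed by -1.76 ± 0.21 (adjusted p = 4.1e-05). In shRNA cells, 8 of the 12 were higher in DM, led by Chac1, a glutathione-degrading enzyme (1.96 ± 0.14), and 1 was lower. Of all probe sets, 16.3% and 17.5% were called in these directions. In GM the shRNA left 9 of the 12 uncalled, with Ddit3 higher (0.74 ± 0.14) and Chac1 the largest of 2 that were lower (-0.82 ± 0.14). The shares of all probe sets called there were 3.99% higher and 2.57% lower. The interaction was called below 0 for 8 of the 12 and above 0 for 0, beside 4.48% and 5.48% of all probe sets. It was lowest for Ddit3, which encodes CHOP (-2.26 ± 0.20).

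Sensors and proteases of the response were split. Of 8 genes, 2 were higher and 4 lower in DM in vector cells, beside 23.9% and 25.4% of all tested MA probe sets. With the shRNA in DM, 2 were higher and 2 lower, beside 10.7% and 6.24%. Atf6, the sensor that becomes a transcription factor, averaged 174.2 in DM shRNA cells, 345.7 in DM vector cells, 79.65 in GM shRNA cells and 93.47 in GM vector cells. In vector cells it was higher in DM (1.73 ± 0.14, limma adjusted p = 1.19e-07) and lower with the shRNA in DM (-0.92 ± 0.14, adjusted p = 0.000396). Creb3l1, an Atf6-like factor of secretory cells, was lower in DM (-0.996 ± 0.15), and Eif2ak3, which encodes Perk, was higher with the shRNA in DM (0.81 ± 0.20, adjusted p = 0.0112).

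For oxidative and glycoprotein folding, the shares of all tested probe sets called were 23.9% higher and 25.4% lower in DM in vector cells, and 10.7% higher and 6.24% lower with the shRNA in DM. Of 13 protein disulfide isomerases and oxidases, 1 was higher and 7 lower in vector cells in DM, with a median of -0.53, and 4 were higher and 1 lower with the shRNA in DM, with a median of 0.28. Prdx4, the ER peroxiredoxin, was lower in DM (-1.28 ± 0.13, limma adjusted p = 1.12e-06) and higher with the shRNA in DM (1.15 ± 0.13, adjusted p = 3.03e-05), and Ero1a, the oxidase that recharges disulfide isomerases, did the opposite (1.40 ± 0.12 and -0.63 ± 0.12). Of 7 genes of glycoprotein folding, 0 were higher and 3 lower in DM in vector cells, and 2 were higher with the shRNA in DM. Lman1, a cargo receptor for glycoproteins, led both (-0.71 ± 0.18 and 0.73 ± 0.18).

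The counts for the partners of BiP, the degradation machinery and the translocon stand beside the same shares of all probe sets, and several lie near them. Of 7 Hsp70 and J-protein partners, 2 were higher and 1 lower in vector cells, with Sil1, the exchange factor of BiP, higher (0.82 ± 0.13) and Hyou1, the large Hsp70 of the ER, lower (-0.64 ± 0.15). Sil1 was lower with the shRNA in DM (-0.67 ± 0.13, limma adjusted p = 0.00258). Of 14 genes of ER-associated degradation, 5 were higher and 3 lower, and the related mannosidase-like genes Edem3 (1.68 ± 0.24) and Edem1 (-1.54 ± 0.22) were the largest in each direction. With the shRNA in DM, 0 of the 14 were higher and 1 was lower, Derl1, a membrane protein of the retrotranslocation channel (-0.50 ± 0.11). Of 20 genes of the translocon and oligosaccharyltransferase, 4 were higher and 9 lower in DM in vector cells, and Sec61a1, the channel subunit, fell most (-1.71 ± 0.15, adjusted p = 1.86e-07). With the shRNA in DM, 2 of the 20 were higher, of which Sec61a1 changed most (0.45 ± 0.15, adjusted p = 0.0475), and Srprb, a subunit of the signal recognition particle receptor, was the 1 that was lower (-0.37 ± 0.12). Without replicate 3 of DM vector, the shRNA counts in DM were 1 higher and 0 lower of the 20, 1 higher and 2 lower of the 14, and 1 higher of the 7 partners of BiP. Of all tested MA probe sets, 19.7% were then called in either direction, against 16.9% with all arrays.

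**Figure D4:**
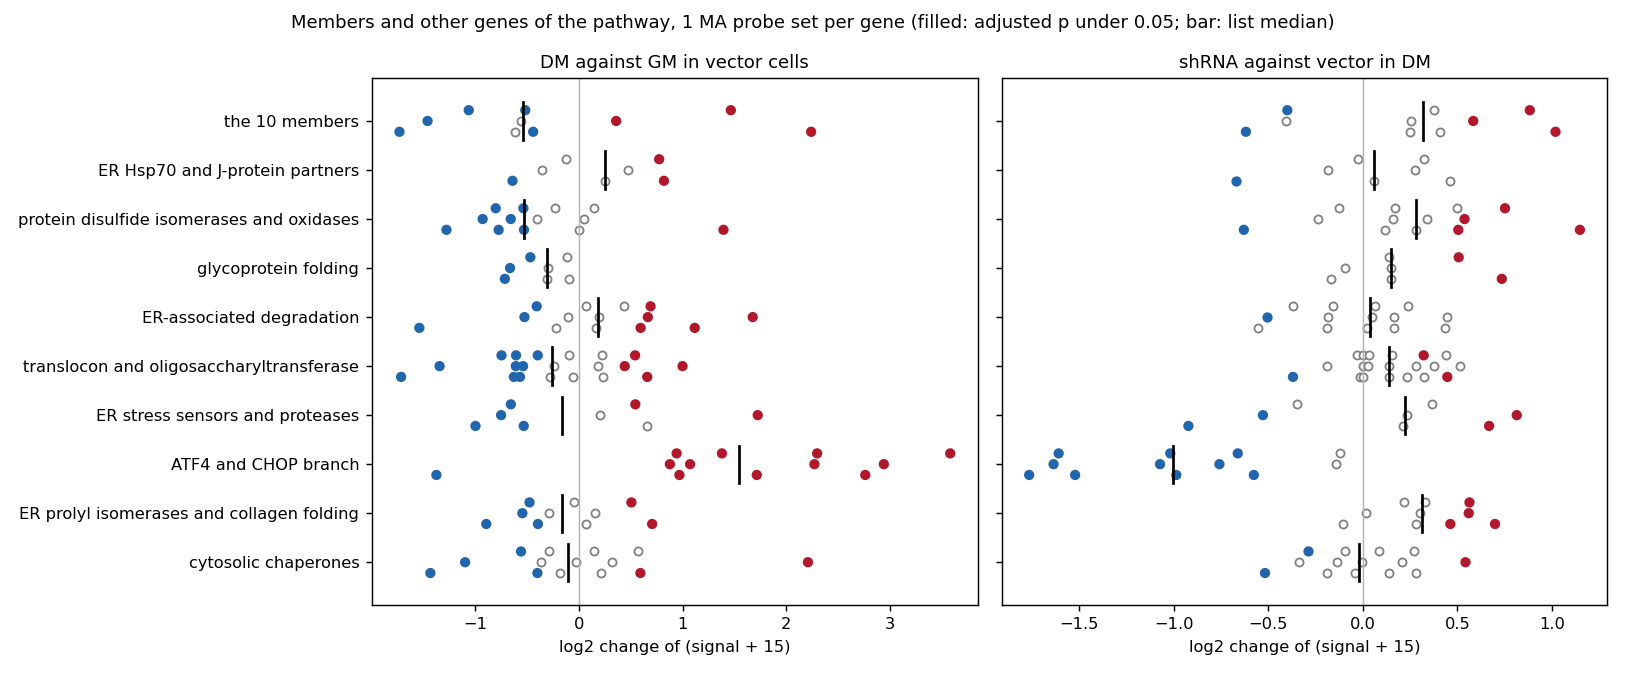
Change (log2, signal + 15) of each tested gene of the 10 genes and of the other ER and cytosolic lists on MA arrays, for DM against GM in vector cells and for shRNA against vector in DM; filled points have an adjusted p under 0.05 and the line marks the list's median. The Atf4 and CHOP list has medians of 1.55 and -1, and the 10 genes have medians of -0.54 and 0.32.

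The 10 genes did not share a single pattern over the 12 MA arrays. Of their 45 pairs, 25 had a positive correlation, with a median of 0.12 and a range of -0.98 to 0.94. The lowest was between Creld2 and Dnajb9 and the highest between Dnajb9 and Herpud1. With group means taken out, the median was -0.03 and the range -0.83 to 0.71. The genes most like Hspa5 over the 12 arrays, among 3988 genes with a mean signal of at least 150, were Sqor (0.967), Lsm8 (0.96), Lsm3 (0.954), Anxa1 (0.943) and Kctd2 (0.943). The genes least like it were Ehd4 (-0.953), Des (-0.939), Klf5 (-0.938), Thop1 (-0.936) and Rassf7 (-0.935). All of these values share the same arrays and the same 4 groups and are descriptions.

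**Figure D5:**
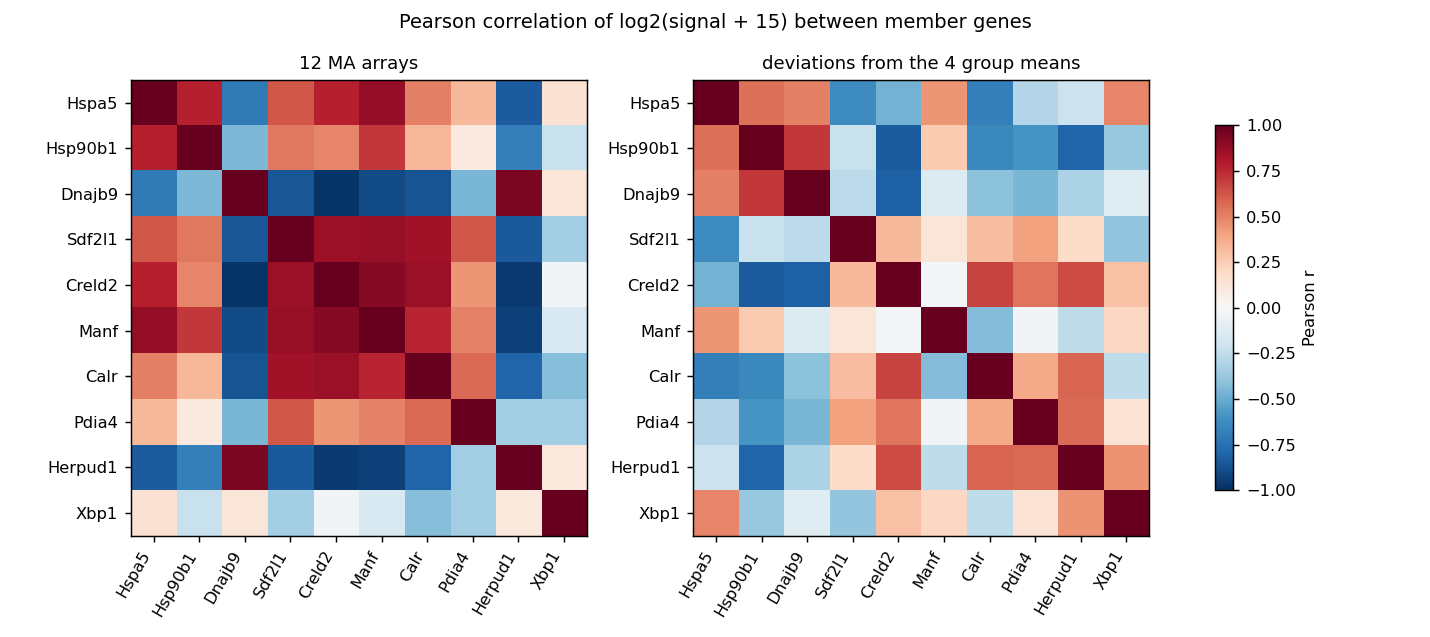
Pearson correlation between the 10 genes on a colour scale of -1 to 1, over the 12 MA arrays (left) and over deviations from the 4 group means (right), from log2(signal + 15). On the left, Creld2 with Dnajb9 gives the lowest value (-0.98) and Dnajb9 with Herpud1 the highest (0.94).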

How the data were processed

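The values deposited by the authors were linear intensities, 1 for each probe set on each array. Per the submitters' processing notes, MAS5 was used to reduce the probes of a set to 1 signal, with version and settings not given in the sources used here. The values were already scaled: with 2% trimmed at each end, the mean was 150.06 to 150.08 in MA and 150.03 to 150.04 in MB arrays. Groups were taken from the titles. Gene symbols came from the platform annotation. From the deposited intensities, log2(signal + 15) was fitted in limma 3.58.1 (R 4.3.3) with 4 group means per design, 8 residual degrees of freedom and a variance trend, for probe sets reaching 30 in at least 3 of 12 arrays. Designs were fitted apart.

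The choice of the 10 genes, of the pathway lists and of which genes to name was made with earlier results of these data known. The rule took every probe set of the 10 genes, the largest rise and fall among the called genes of each list, and the 5 genes most and least like Hspa5. Some of the list genes that it took are not named here. Named besides are Chac1, Ddit3, Lpl, Ndrg1 and the checks Ddx5, Myog, Ckm and Mki67. Replicate numbers were not used to pair arrays, since no label ties them together. Alternatives were pseudocounts of 1 and 50, no filter, quantile normalization, only the groups compared, no variance trend, the replicate number as a block, the mean of all probe sets of a gene, and leaving out each array. List counts without replicate 3 of DM vector were added after seeing the data. Array numbers limit the precision.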

Additional observations from a re-analysis of the deposited data

Results flagged for a closer look

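In 3 probe sets of the 10 genes, the shRNA change in DM differed from that in GM by a test of the difference itself (limma interaction over all tested MA probe sets). Xbp1 at its brightest probe set differed by -0.77 ± 0.16 (adjusted p = 0.00639), since the shRNA change was -0.40 in DM and 0.37 in GM, the second of which did not pass. Herpud1 differed by -0.625 ± 0.15 at its brightest probe set (adjusted p = 0.0164) and by -0.645 ± 0.15 at its second (adjusted p = 0.0133), with shRNA changes in GM of 0.01 and -0.04. The other Xbp1 probe sets did not show this difference at the threshold: the second gave -0.07 ± 0.14 (adjusted p = 0.802), the third -0.36 ± 0.30 (adjusted p = 0.527) and the fourth -0.15 ± 0.23 (adjusted p = 0.762). Ddx5 itself was lower with the shRNA in DM by -0.68 and in GM by -0.31, and its interaction did not pass (-0.38 ± 0.22, adjusted p = 0.332).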

How the results depend on the processing

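For the 10 genes, the numbers called in DM against GM stayed within 1.5 times in both constructs under every alternative that kept all arrays. The shRNA counts moved as follows. With quantile normalization, 1 gene was higher in GM (0 in the reported fit) and 1 had an interaction above 0 (0). With only the groups compared, 1 was lower in DM (2) and 1 higher in GM (0). Without the variance trend, 1 was lower in DM (2). With the mean of all probe sets of a gene, 1 was lower in DM (2) and 1 had an interaction below 0 (2). With the replicate block, 1 had an interaction above 0 (0), which was Sdf2l1 (adjusted p = 0.0424). The block also called Hsp90b1 lower in DM in vector (0.00934) and shRNA cells (0.0217) and higher with the shRNA in DM (0.0366), and Dnajb9 lower with the shRNA in DM (0.0441), and Xbp1 was no longer called in vector cells (0.0549). No label ties equal numbers together: over 9 pairs of equal numbers on MA arrays, deviations from the group means correlated at -0.139 to 0.293 and in 6 of them the array correlated best with its own number, while on 12 MB pairs the range was -0.039 to 0.028. Leaving out each array gave 2 to 3 genes higher and 5 to 6 lower for DM against GM in vector cells, 2 to 2 higher and 3 to 5 lower in shRNA cells, 1 to 5 higher and 1 to 3 lower with the shRNA in DM, 0 to 1 higher and 0 to 0 lower in GM, and 0 to 2 above and 1 to 2 below 0 for the interaction. The lowest count higher in DM, 1, came without any DM shRNA array and the highest, 5, without replicate 3 of DM vector.

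Signs turned only where neither value was called, apart from Xbp1 in vector cells. With the block, the shRNA change in GM was 0.057 for Sdf2l1, -0.067 for Pdia4 and -0.042 for Herpud1. With probe sets averaged, DM against GM in vector cells was 0.105 for Hsp90b1 and -0.11 for Xbp1, the change in GM was -0.018 for Herpud1 and the interaction was -0.145 for Hsp90b1. Leaving out arrays moved the change in GM between -0.259 and 0.267 for Sdf2l1, -0.019 and 0.165 for Creld2, -0.1 and 0.323 for Pdia4, -0.065 and 0.062 for Herpud1 and -0.002 and 0.195 for Manf, and the interaction between -0.17 and 0.047 for Hspa5 and -0.022 and 0.415 for Hsp90b1. Over all probe sets, only the groups compared gave 1573 calls for the shRNA in DM against 2430, and averaging gave 4202 and 2985 for DM against GM in vector and shRNA cells against 7078 and 4869, with fewer features tested. With no filter, 30.9, 20, 9.66, 3.3 and 5.12% were called against 49.3, 33.9, 16.9, 6.56 and 9.95%. Leaving out arrays gave 411 to 1478 calls for the shRNA in GM against 942, and as few as 916 for the interaction against 1430. Where no cause is stated, the cause was not tested. Signals below 15 made up 27.25 to 31.41% of MA probe sets.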

Other observations

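Chaperones outside the ER lumen were read beside the 10 genes as a separate list. In vector cells, 2 of 14 cytosolic chaperones were higher in DM and 4 were lower, with a median change of -0.10. Of all tested MA probe sets, 23.9% were called higher and 25.4% lower there. Cryab, the small heat shock protein alphaB-crystallin of muscle, was higher (2.21 ± 0.16, limma adjusted p = 3.09e-08), and Hspa1b, the inducible cytosolic Hsp70, was lower (-1.43 ± 0.20, adjusted p = 3.68e-05). With the shRNA in DM, Dnajb1, a cytosolic J-protein, was the 1 that was higher (0.54 ± 0.11, adjusted p = 0.00279), and Cryab was among 2 that were lower (-0.52 ± 0.16, adjusted p = 0.036). These counts stand beside 10.7% of all probe sets called higher and 6.24% called lower. Without replicate 3 of DM vector, 4 were higher in DM in vector cells and 1 was lower with the shRNA in DM. In these comparisons, 52.8% and 19.7% of all probe sets were then called in either direction, against 49.3% and 16.9% with all arrays.

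Of 10 ER prolyl isomerases and collagen-folding genes, 2 were higher and 4 lower in DM in vector cells, beside 23.9% and 25.4% of all tested MA probe sets. With the shRNA in DM, 4 were higher and 0 lower, beside 10.7% and 6.24%. In GM, 3 of these 10 were higher with the shRNA and 0 lower, beside 3.99% and 2.57% of all probe sets. Fkbp7, an ER prolyl isomerase, was higher in both media (0.70 ± 0.20, limma adjusted p = 0.0244, in DM and 1.16 ± 0.20, adjusted p = 0.00331, in GM). Ostc, a subunit of the oligosaccharyltransferase, averaged 877.2 in GM shRNA cells and 433.2 in GM vector cells (1.00 ± 0.13, adjusted p = 0.00043), the largest of 4 rises among 20 translocon genes in GM. Without replicate 3 of DM vector in the shared fit, 8 of the 20 were called higher in GM. In either direction, 10.5% of all tested MA probe sets were then called in GM, against 6.56% with all arrays.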
